A study of Mus musculus with 10 samples.

Results

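The transcripts described here come from 33 genes of skeletal muscle, read in embryonic mouse gallbladders and cystic ducts, organs whose muscle coat is smooth muscle. The 33 genes are a list by name and role with no threshold on their values, but the list was drawn up with earlier results of these data known, so counts over it are descriptions. It holds 4 myogenic transcription factors, 9 thick filament and M band genes, 9 thin filament genes, titin and alpha-actinin 2, 8 genes of the neuromuscular junction and of excitation, and muscle creatine kinase. All 33 were among the 18193 genes read by the arrays. Of the 33, 23 passed a filter that kept the 14696 genes brightest on average and were tested; the other 10 were dim in most arrays and are given as values only. Ttn, Mybpc1 and Tnnt3 passed only through their high signal in 1 array, B6 Sox17+/- replicate 3: their means over the other 9 arrays were 4.46, 4.45 and 4.42, below the filter.

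All samples came from mouse embryos 15 days post coitum (dpc) and made 5 groups of 2 biological replicates. The outbred ICR stock gave wild type and Sox17+/- gallbladders and the cystic ducts of wild type embryos (replicates 1 and 2). The strain C57BL/6 (B6) gave gallbladders of both genotypes (replicates 3 and 4). Sox17 is a transcription factor gene active in the endoderm and the forming gallbladder, and Sox17+/- embryos are heterozygous for a Sox17 allele. The labels describe neither the allele nor how tissue was dissected, pooled or assigned to litters, so a p-value here measures only the spread between these samples. Each sample was hybridised to 1 Affymetrix array, and its values are log2 signals per probe set, a group of short oligonucleotides that reads a transcript; a difference of 1 on this scale is a 2-fold difference. In bulk tissue, fewer cells of a type and less RNA per cell cannot be told apart.

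Skeletal muscle forms when progenitors switch on myogenic transcription factors, leave the cell cycle, fuse and build sarcomeres. The factors Myf5 and Myod1 commit cells, myogenin (Myog) drives their differentiation, and Myf6 acts in differentiating fibres. They bind the E-box, and their targets include the contractile proteins, the acetylcholine receptor and creatine kinase. Fetal fibres use embryonic and perinatal myosins before the adult ones, and several of these genes, among them Actc1, Tnnc1, Ttn, Actn2 and Casq2, are also expressed in heart.

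The promoters of 4 members whose signal was high in the same arrays are shown because all carry the E-box, the element that myogenic factors bind. The sequences are RefSeq's on build GRCm38.p6, each 300 bases long and running from 250 bases before to 50 after the start of the transcript; capitals mark each E-box (CANNTG, which reads alike on both strands).

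Myog, chr1:134289754-134290053, plus strand: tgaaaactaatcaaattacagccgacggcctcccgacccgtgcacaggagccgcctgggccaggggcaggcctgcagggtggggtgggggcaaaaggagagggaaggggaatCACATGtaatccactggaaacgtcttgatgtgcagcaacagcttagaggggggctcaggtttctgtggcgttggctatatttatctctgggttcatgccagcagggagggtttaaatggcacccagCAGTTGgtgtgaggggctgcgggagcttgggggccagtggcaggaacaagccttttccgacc
Myh3, chr11:67078050-67078349, plus strand: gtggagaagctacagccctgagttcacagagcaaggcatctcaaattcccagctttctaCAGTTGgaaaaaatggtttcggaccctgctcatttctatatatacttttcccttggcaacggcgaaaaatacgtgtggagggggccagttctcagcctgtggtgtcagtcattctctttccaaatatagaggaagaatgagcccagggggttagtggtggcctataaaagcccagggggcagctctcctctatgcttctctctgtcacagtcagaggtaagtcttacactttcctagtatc
Acta1, chr8:123894726-123895025, minus strand: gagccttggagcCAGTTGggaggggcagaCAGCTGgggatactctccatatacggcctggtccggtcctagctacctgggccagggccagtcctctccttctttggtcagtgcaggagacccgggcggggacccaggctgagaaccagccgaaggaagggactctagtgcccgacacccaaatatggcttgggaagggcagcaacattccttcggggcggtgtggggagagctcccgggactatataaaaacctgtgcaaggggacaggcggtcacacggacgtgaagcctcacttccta
Tnnc2, chr2:164779685-164779984, minus strand: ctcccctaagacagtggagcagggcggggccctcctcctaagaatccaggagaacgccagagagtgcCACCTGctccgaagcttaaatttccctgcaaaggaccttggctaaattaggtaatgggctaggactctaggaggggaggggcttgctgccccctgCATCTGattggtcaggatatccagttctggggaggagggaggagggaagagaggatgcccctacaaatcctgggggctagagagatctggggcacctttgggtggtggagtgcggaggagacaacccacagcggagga

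The Myog window held CACATG, starting 138 bases before the transcript start, and CAGTTG, starting 12 bases before it. The Myh3 window held CAGTTG at 191 bases before its start. Acta1 had CAGTTG at 238 and CAGCTG at 221 bases before its start, and a CArG box, the element of serum response factor, at 73. Tnnc2 had CACCTG at 183 and CATCTG at 88 bases before its start. The promoter table held 27 promoters of 26 of the 33 genes; Myod1, Myf6, Tnnt3, Tnni2, Neb, Chrnd and Myom2 had no entry. An E-box was in 24 of these 27 (88.9%), against 72.3% of all 32851 promoters of that length. The form CAGCTG, which is itself an E-box, was in 13 (48.1%), against 16.3% of all promoters. A full match to the MEF2 pattern used, searched on both strands, was in 3 (Casq2, Myh8 and Ttn, 11.1% against 3.2%). Sequences close to that pattern were not counted. The Myog window, which holds the run ctatatttat, had no full match. A window without a match may therefore still hold a MEF2 site. A CArG box was in 3 (Acta1, Actc1 and Myom1, 11.1% against 1.6%). These matches describe the letters in the windows and no binding was measured.

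Sox17 itself read 9.52 and 9.24 in the ICR wild type gallbladders and 7.65 and 7.90 in the ICR Sox17+/- ones. In B6 it read 9.29 and 9.04 in the wild type and 8.03 and 7.91 in the Sox17+/- gallbladders. The Sox17+/- arrays lay below the wild type gallbladders in both strains, as their labels say. Replicates correlated over all tested genes with r from 0.9665 to 0.9957 in the gallbladder pairs and 0.8984 in the cystic duct pair. Library depth has no counterpart on arrays, where the small number of arrays limits the precision. The 3' minus 5' signal of the Gapdh control, a measure of RNA integrity, ran from 0.00 to 0.93 log2 over the 10 arrays, with 0.21 and 0.30 in the B6 Sox17+/- pair.

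One gallbladder array, B6 Sox17+/- replicate 3, held a broad set of skeletal muscle transcripts that its own replicate and the other 8 arrays held at much lower signal. The median of the 23 tested genes, each taken relative to its mean over the gallbladder arrays, was 1.64 log2 in that array and between -0.54 and 0.03 in the other 9. In that array it was 1.349 with the filter on the other 9 arrays and 1.246 over all 33 genes, and 0.01 over all genes tested. On the linear scale the signals of all 33 genes summed to 9970 there, against 1500 to 2310 elsewhere. Of the 23 genes, 18 had their highest value of the 10 arrays there (4.99% of all genes tested did), and 12 were over 1 log2 above the next array (0.102% of all genes). Both counts include Ttn, Mybpc1 and Tnnt3, which that array carried past the filter. With the filter set on the other 9 arrays, a choice made after the values were seen, they were 15 and 9 of 20 genes (4.92% and 0.0817% of all genes). With no filter they were 24 and 14 of all 33 genes, against 5.31% and 0.143% of the 18193 genes read.

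**Figure D1:**
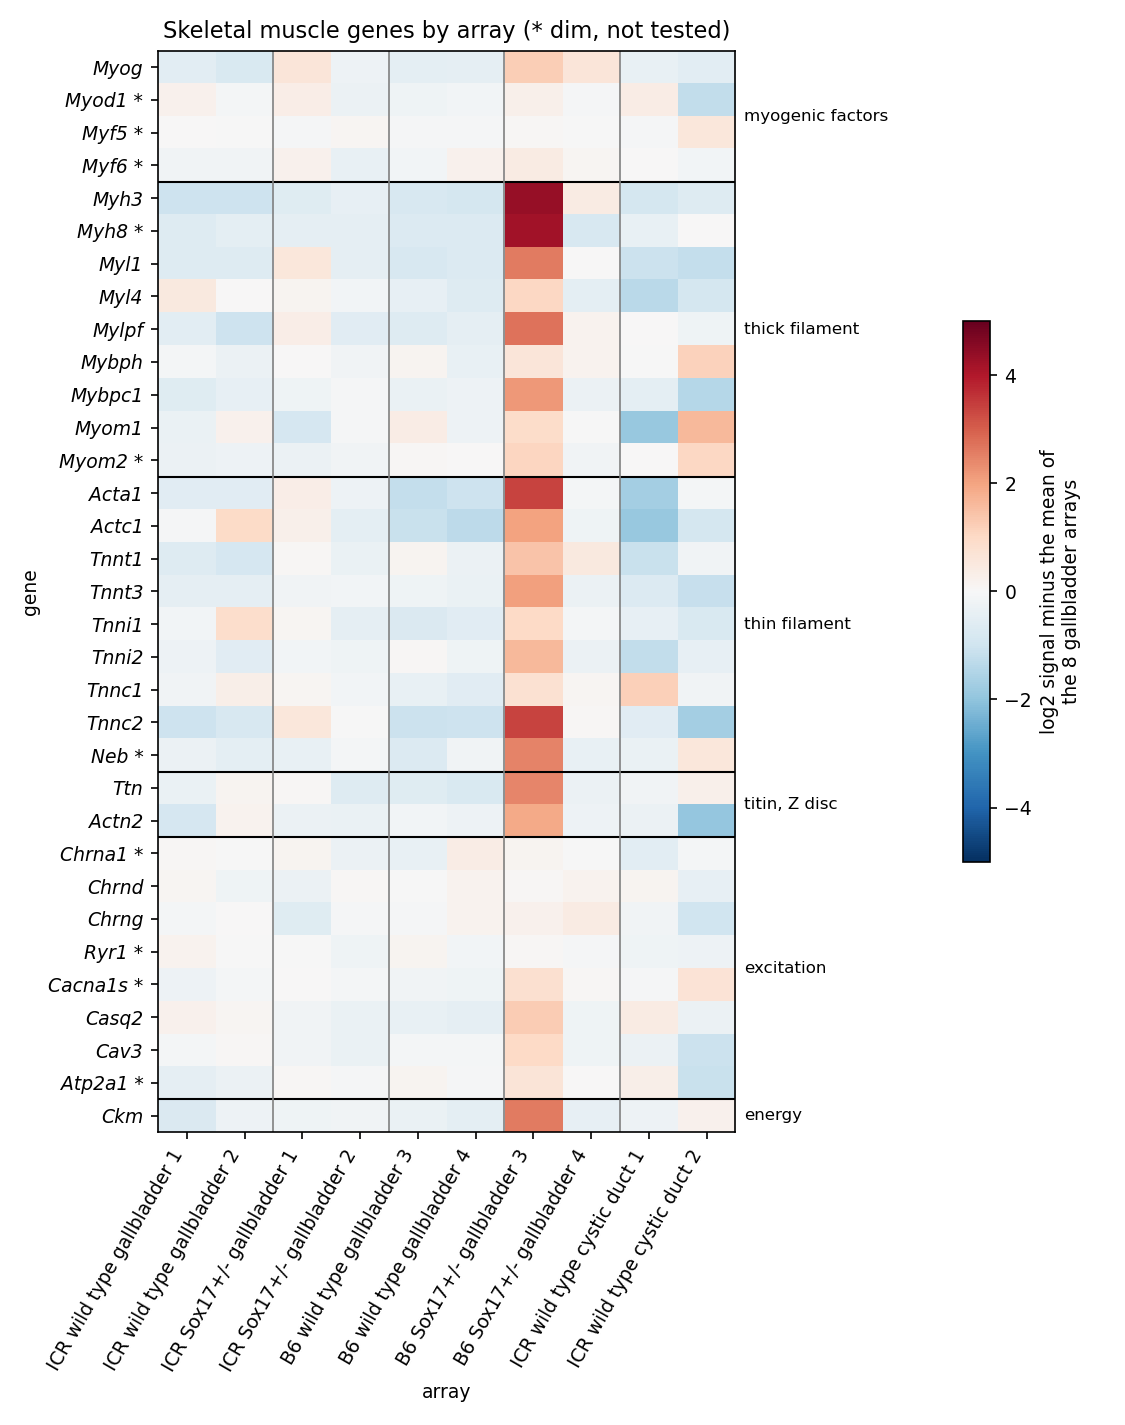
Each cell is the log2 signal of 1 skeletal muscle gene (rows, by role) in 1 array (columns), minus the gene's mean over the 8 gallbladder arrays; asterisks mark the 10 genes below the filter. The column of B6 Sox17+/- replicate 3 is red for most thick filament, thin filament and titin or Z disc genes, with a median of 1.64 over the 23 tested genes, while the acetylcholine receptor genes stay near 0.

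Among the myogenic factors, only myogenin passed the filter. Myog read 4.46 and 4.23 in ICR wild type and 5.59 and 4.73 in ICR Sox17+/- gallbladders. It read 4.48 and 4.53 in B6 wild type, 6.22 and 5.58 in B6 Sox17+/- gallbladders, and 4.62 and 4.44 in the cystic ducts. All 4 Sox17+/- arrays therefore lay above all 6 wild type arrays, and the 2 B6 Sox17+/- replicates differed by 0.64. In B6 the fitted difference was 1.40 ± 0.32 log2 (SE, n = 2 per group; limma adjusted p = 1), and both Sox17+/- arrays showed it.

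Myod1, the commitment factor, read 4.73 and 4.41 in ICR wild type, 4.83 and 4.21 in ICR Sox17+/-, 4.29 and 4.38 in B6 wild type, 4.75 and 4.45 in B6 Sox17+/- gallbladders, and 4.89 and 3.28 in the cystic ducts. Myf5 read 2.88 and 2.84, 2.80 and 2.95, 2.80 and 2.81, and 2.92 and 2.84 in the same gallbladder groups and 2.79 and 3.44 in the cystic ducts. Myf6 read 3.52 and 3.51, 3.91 and 3.31, 3.55 and 3.91, 4.10 and 3.79, and 3.70 and 3.58 in that order. These 3 factors lay below the filter. In ICR their gallbladder groups overlapped. In B6 both Sox17+/- arrays lay above both wild type arrays for Myod1 and Myf5, as they did for 19.8% of all genes read. The nearest arrays were only 0.06 and 0.03 log2 apart, with replicate 3 at 0.41 and 0.11 log2 above the wild type mean.

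Of the thick filament and M band genes, 5 of the 7 tested had their highest value in B6 Sox17+/- replicate 3 (4.99% of all genes did). The 5 include Mybpc1, which passed the filter only through that array. Embryonic myosin heavy chain, Myh3, the first skeletal myosin of the embryo, read 10.10 there and 6.18 in replicate 4, against 4.96 and 4.88 in B6 wild type. In ICR it read 4.70 and 4.73 in wild type and 5.15 and 5.33 in Sox17+/- gallbladders, and 4.86 and 5.12 in the cystic ducts. The Sox17+/- arrays were again all above the wild type ones, but replicate 3 was 15.1-fold above replicate 4, and the B6 difference of 3.22 ± 1.00 log2 (SE, n = 2 per group; limma adjusted p = 1) was 1.25 with replicate 3 left out. With replicate 4 left out instead, the B6 difference of Myh3 was 5.17 log2. A lone array has no spread of its own, so this is an effect size only.

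The myosin light chains of fast fibres followed the same order. Myl1, an alkali light chain, read 9.19 and 6.62 in B6 Sox17+/-, 5.79 and 5.92 in B6 wild type, 7.18 and 6.17 in ICR Sox17+/-, 5.96 and 5.97 in ICR wild type gallbladders, and 5.54 and 5.40 in the cystic ducts. Mylpf, the fast regulatory light chain, read 9.89 and 7.35 in B6 Sox17+/-, 6.53 and 6.71 in B6 wild type, 7.51 and 6.59 in ICR Sox17+/-, 6.62 and 6.12 in ICR wild type gallbladders, and 7.19 and 6.95 in the cystic ducts. Myl1 separated Sox17+/- from wild type arrays in both strains, and Mylpf in B6 alone, since ICR Sox17+/- replicate 2 fell below ICR wild type replicate 1. The B6 differences were 2.04 ± 0.72 log2 for Myl1 and 2.00 ± 0.71 for Mylpf (SE, n = 2 per group; limma adjusted p = 1 for both).

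Mybpc1, slow myosin binding protein C, read 7.06 in B6 Sox17+/- replicate 3 but 4.61 in replicate 4, within the B6 wild type values of 4.57 and 4.65. It read 4.70 and 4.86 in ICR Sox17+/-, 4.30 and 4.51 in ICR wild type gallbladders, and 4.41 and 3.49 in the cystic ducts. In B6 this gene was therefore high in 1 array only (difference 1.23 ± 0.68 log2, limma adjusted p = 1), and its other probe sets, both dimmer, differed: 1 read 5.07 there against 3.96 in replicate 4 and 3.74 and 3.54 in B6 wild type, while the other read 4.63 and 4.23 against 4.63 and 4.52. Myom1, the M band protein myomesin, went another way, with 8.02 in cystic duct replicate 2 and 4.50 in cystic duct replicate 1. In gallbladder Myom1 read 7.31 and 6.36 in B6 Sox17+/-, 6.77 and 6.13 in B6 wild type, 5.54 and 6.32 in ICR Sox17+/- and 6.07 and 6.60 in ICR wild type, and the groups overlapped in both strains.

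Perinatal myosin heavy chain, Myh8, was dim in 9 arrays and so fell below the filter. It is named because its gap was the widest of the 33 genes: 8.43 in B6 Sox17+/- replicate 3 and 3.43 in replicate 4, with all other arrays between 3.52 and 4.25. The adult fast myosins Myh1, Myh2 and Myh4 were below the filter in these embryos, with 3.79, 3.68 and 3.13 in B6 Sox17+/- replicate 3 and no value outside 3.02 to 4.45 in any array. Among the other thick filament genes, Myl4, the atrial and embryonic light chain, was highest in that array at 7.98, and Mybph and the dim Myom2 ranged over 1.49 log2 and 1.35 log2 across arrays. A second probe set of Myl4 differed by 0.17 between the B6 Sox17+/- replicates, against 1.52 for the brighter one used.

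**Figure D2:**
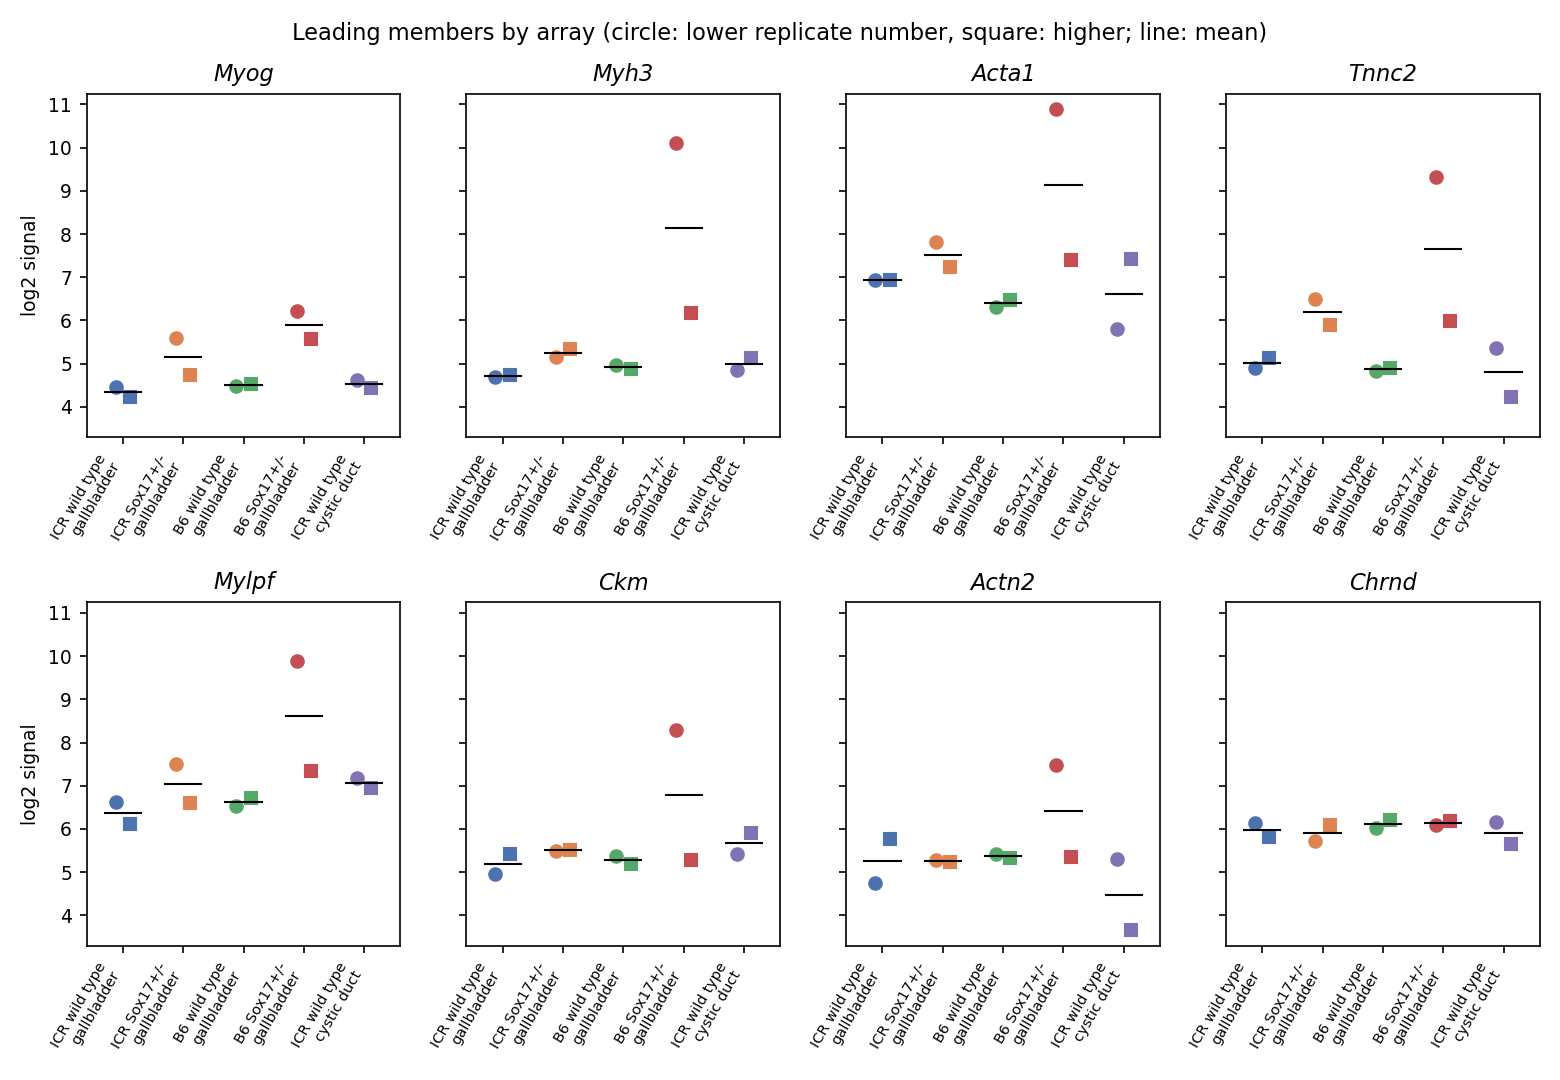
Points are the log2 signals of 8 skeletal muscle genes in each of the 10 arrays, by group (circle, lower replicate number; square, higher; line, group mean of n = 2). Myog, Myh3 and Tnnc2 have all 4 Sox17+/- arrays above the 6 wild type arrays, Ckm and Actn2 are high in B6 Sox17+/- replicate 3 alone, and Chrnd is flat; heights are not compared between genes.

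Thin filament genes were highest in B6 Sox17+/- replicate 3 too in 7 of 8 tested members (4.99% of all genes were). The 7 include Tnnt3, which passed the filter only through that array. Acta1, the actin of skeletal muscle, read 10.89 and 7.39 in B6 Sox17+/- against 6.32 and 6.48 in B6 wild type gallbladders. In ICR it read 7.82 and 7.23 in Sox17+/- and 6.94 and 6.94 in wild type gallbladders, and 5.80 and 7.41 in the cystic ducts. Both Sox17+/- replicates exceeded both wild type replicates in each strain; the B6 difference was 2.74 ± 0.99 log2 (SE, n = 2 per group; limma adjusted p = 1) and 0.99 without replicate 3.

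Tnnc2, the calcium sensor of fast fibres, read 9.31 and 5.99 in B6 Sox17+/- and 4.84 and 4.89 in B6 wild type gallbladders. In ICR it read 6.49 and 5.89 in Sox17+/- and 4.89 and 5.13 in wild type gallbladders, and 5.37 and 4.23 in the cystic ducts. The nearest ICR Sox17+/- and wild type arrays were 0.75 log2 apart, the widest such separation among the tested members in ICR. In B6 the difference was 2.78 ± 0.91 log2 (SE, n = 2 per group; limma adjusted p = 1), or 1.11 without replicate 3.

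Actc1, the actin of heart and of fetal skeletal muscle, read 10.28 and 8.08 in B6 Sox17+/- and 7.16 and 6.97 in B6 wild type gallbladders. In ICR the order was not the same: 8.54 and 7.81 in Sox17+/- against 8.21 and 9.25 in wild type, with 6.40 and 7.41 in the cystic ducts. The B6 groups did not overlap (2.11 ± 0.70 log2, limma adjusted p = 1), the ICR groups did, and wild type replicate 2 was the highest of the ICR arrays.

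Tnnt3, fast troponin T, read 6.89 in B6 Sox17+/- replicate 3 and 4.56 in replicate 4, with 4.64 and 4.54 in B6 wild type gallbladders. In ICR, 4.66 and 4.72 in Sox17+/- lay above 4.42 and 4.41 in wild type, and the cystic ducts read 4.17 and 3.70. Tnni2, fast troponin I, read 8.98 and 7.05 in B6 Sox17+/-, 7.39 and 7.11 in B6 wild type, 7.20 and 7.14 in ICR Sox17+/-, 7.09 and 6.79 in ICR wild type gallbladders, and 6.13 and 6.92 in the cystic ducts. For both genes B6 Sox17+/- replicate 4 lay at the level of B6 wild type, so the B6 groups overlapped.

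The slow and cardiac troponins stood out less in the same array. Tnnt1, Tnni1 and Tnnc1, the slow fibre subunits, exceeded the B6 wild type mean there by 1.53, 1.61 and 1.24 log2, and in replicate 4 by 0.57, 0.53 and 0.57. For 5 fast isoforms (Myl1, Mylpf, Tnnt3, Tnni2 and Tnnc2) and these 3 slow troponins, the medians relative to the gallbladder mean were 2.59 and 0.98 in B6 Sox17+/- replicate 3. The fast minus slow difference was 1.61 log2 in that array and between -0.99 and 0.27 in the other 9. With 2 arrays per group no permutation of samples could reach the threshold, so these are values only. The sets are not matched, since only the fast one holds light chains. Slow thick filament genes were in neither set: Mybpc1 and Myh7 were 2.45 and 2.44 log2 higher in B6 Sox17+/- replicate 3 than in replicate 4. Nebulin, Neb, which sets the length of the thin filament, was below the filter. It read 5.85 in B6 Sox17+/- replicate 3 against 2.70 to 3.96 in the rest, and is named after its values were seen.

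Titin and alpha-actinin 2 tie the filaments to the Z disc. Ttn read 7.16 and 4.42 in B6 Sox17+/-, 4.12 and 3.95 in B6 wild type, 4.79 and 4.09 in ICR Sox17+/-, 4.39 and 4.87 in ICR wild type gallbladders, and 4.54 and 4.97 in the cystic ducts. Actn2 read 7.48 and 5.34 in B6 Sox17+/-, 5.43 and 5.32 in B6 wild type, 5.29 and 5.23 in ICR Sox17+/-, 4.74 and 5.77 in ICR wild type gallbladders, and 5.30 and 3.66 in the cystic ducts. Both peaked in B6 Sox17+/- replicate 3; Ttn separated the B6 groups (1.75 ± 0.75 log2, limma adjusted p = 1) and Actn2 did not (1.04 ± 0.74, limma adjusted p = 1, and -0.04 without replicate 3). Of the 5 other probe sets of Ttn, 1 was 3.24 log2 higher in replicate 3 than in replicate 4 and the others lay between -0.10 and 0.38.

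Genes of the neuromuscular junction and of excitation split, with the acetylcholine receptor subunits level and the tested membrane and calcium store genes, Cav3 and Casq2, over 1 log2 higher in B6 Sox17+/- replicate 3 than in replicate 4. Chrnd, a subunit of the muscle acetylcholine receptor, read 6.10 and 6.19 in B6 Sox17+/-, 6.01 and 6.20 in B6 wild type, 5.72 and 6.09 in ICR Sox17+/-, 6.14 and 5.81 in ICR wild type gallbladders, and 6.15 and 5.64 in the cystic ducts. Chrng, the fetal subunit of that receptor, read 5.79 and 5.99 in B6 Sox17+/-, 5.50 and 5.75 in B6 wild type, 4.97 and 5.52 in ICR Sox17+/-, 5.46 and 5.58 in ICR wild type gallbladders, and 5.38 and 4.56 in the cystic ducts. Neither was raised in replicate 3 over replicate 4 of B6 Sox17+/-, where they differed by -0.09 and -0.20.

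Casq2, the calcium store protein of heart and slow fibres, read 6.95 and 5.48 in B6 Sox17+/- and 5.31 and 5.24 in B6 wild type gallbladders. In ICR it read 5.52 and 5.38 in Sox17+/- and 5.91 and 5.80 in wild type gallbladders, and 6.10 and 5.41 in the cystic ducts. Casq2 thus lay higher in Sox17+/- than in wild type in B6 and lower in ICR, without overlap in either strain. Of all genes tested, 20.4% lay higher without overlap in B6 and 21.1% lay lower without overlap in ICR. The share of all genes that did both was not counted.

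Cav3, the caveolin of muscle membranes, read 6.59 and 5.36 in B6 Sox17+/-, 5.49 and 5.48 in B6 wild type, 5.42 and 5.25 in ICR Sox17+/-, 5.49 and 5.63 in ICR wild type gallbladders, and 5.31 and 4.53 in the cystic ducts. It was high in the 1 B6 array, while its ICR Sox17+/- arrays were both below wild type. The dim members Chrna1, Ryr1, Cacna1s and Atp2a1, which encode the receptor's ligand-binding subunit, the calcium release channel, the voltage sensor and the fast calcium pump, ranged over 0.92, 0.45, 1.05 and 1.79 log2 across arrays. Muscle creatine kinase, Ckm, which buffers ATP in fibres, read 8.29 in B6 Sox17+/- replicate 3 and 5.29 in replicate 4, an 8.03-fold gap. All other arrays read Ckm between 4.95 and 5.91, so replicate 3 stood alone, although a second Ckm probe set read 5.37 and 5.75 in the pair and did not show it.

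The gap between the 2 B6 Sox17+/- replicates ran one way for most of the tested genes. Of the 23 tested genes, 16 were over 1 log2 higher in replicate 3 than in replicate 4 (0.633% of all genes were) and 0 were over 1 log2 lower (0.034%). The 16 include Ttn, Mybpc1 and Tnnt3; with the filter on the other 9 arrays they were 13 of 20 (0.606% of all genes). The median gap of the 23 was 1.93 log2, against 0.08 in the B6 wild type pair, 0.19 in the ICR Sox17+/- pair, -0.03 in the ICR wild type pair and 0.18 in the cystic ducts. It was 1.495 with the filter on the other 9 arrays and 1.231 over all 33 genes with no filter. Among the 100 genes with the widest gap in this direction, 17 were members (73.9% of the 23, where members are 0.157% of all genes tested), as were 11 of the first 20. By role, the median gaps were 2.45 for thick filament, 2.06 for thin filament, 2.45 for titin and the Z disc and 0.57 for excitation genes. The 17, the 11 and the first 3 of these medians also include Ttn, Mybpc1 and Tnnt3, which replicate 3 carried past the filter. Their gaps were 2.74, 2.45 and 2.33, and the thick filament median is the gap of Mybpc1. Over all 33 genes, with no filter, 19 exceeded 1 log2 (0.594% of the 18193 genes read); 6 of these had 14 other probe sets, of which 4 exceeded 1 log2 too and 10 did not.

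**Figure D3:**
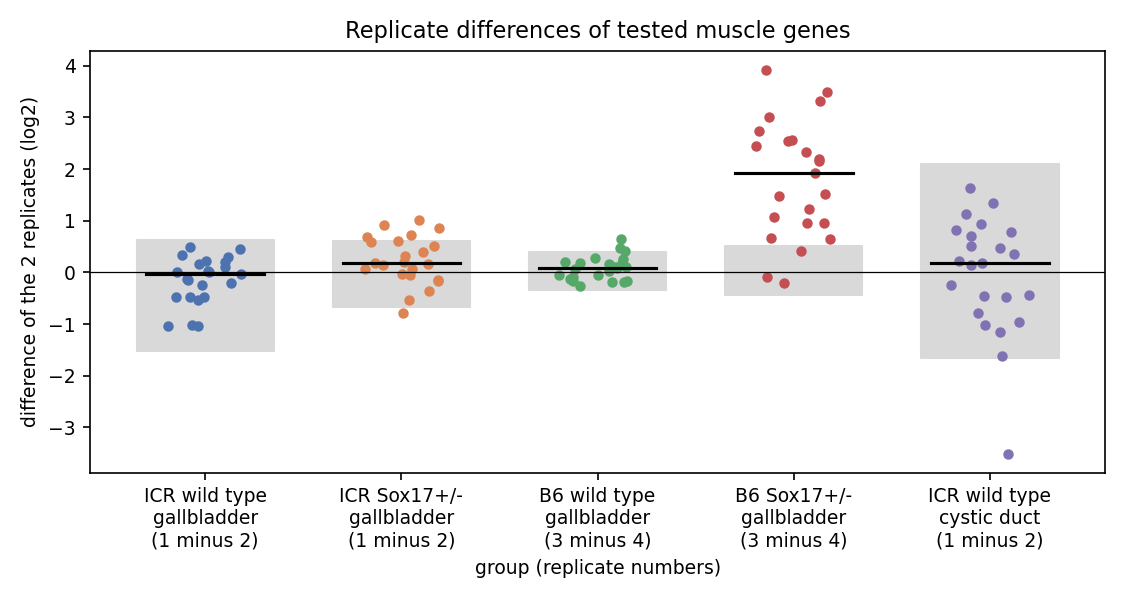
Each point is the log2 difference between the 2 replicates of a group (lower number minus higher) for 1 of the 23 tested skeletal muscle genes; lines are medians and grey boxes hold the central 95% of all genes tested. In B6 Sox17+/- most genes lie above the box, which ends at 0.52, with a median of 1.93; in the other 4 groups the medians lie between -0.03 and 0.19.

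Other muscle genes were raised in part: 109 of a list of 117 were read by the arrays and 81 were tested. Of these, 7 (8.64%, against 0.633% of all genes) were over 1 log2 higher in B6 Sox17+/- replicate 3 than in replicate 4, and 16 (19.8%, against 4.99%) were highest of the 10 arrays there. Sarcolipin (Sln), an inhibitor of the calcium pump, read 7.42 there and 4.33 in replicate 4, and Myh7, the slow and cardiac myosin, read 7.44 and 5.0. The other 5 are named after their values were seen. Ldb3, a Z disc protein, read 7.44 and 4.70 in the pair, Smpx read 6.87 and 4.48, and Srl, a calcium binding protein of the sarcoplasmic reticulum, read 8.42 and 6.86. Csrp3, the muscle LIM protein, read 6.48 and 4.92, and Eno3, muscle enolase, read 8.50 and 7.41. Klhl41 and Myot, both dim and untested, read 5.90 and 3.40, and 5.51 and 3.22. Markers of muscle progenitors did not follow: Met, the receptor that guides migrating progenitors and is also made by epithelia, read 9.62 and 9.39 in this pair, Cdh15 read 6.28 and 6.23, and Pax3 read 5.22 and 5.42. Tnnt2, cardiac troponin T, read 9.05 and 8.51. Tmem38a and Lrp4, of calcium release and of the neuromuscular junction, read 6.19 and 6.21, and 5.99 and 6.66. Fabp3 read 7.44 and 7.43 and Hspb7 read 7.29 and 7.20. The median of the 81 in replicate 3, relative to the gallbladder mean, was 0.09 log2, against 1.64 for the members.

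Markers of other cell types were higher in that array for some lists and not for others, and sums and medians did not always give the same order. Schwann cell markers (5 genes) summed to 1400 on the linear scale against 752 to 1180 in the other gallbladder arrays. Endothelial markers (7 genes) summed to 3420 against 2640 to 3190. Both sums were the highest among the gallbladders. As medians of tested genes relative to the gallbladder mean, Schwann markers stood at 0.17 log2 there, below 0.19 in B6 Sox17+/- replicate 4. Endothelial markers stood at 0.18, against -0.22 to 0.03 in the other gallbladders. Markers of heart (12 genes read) summed to 1080 on the linear scale in B6 Sox17+/- replicate 3, and to 963 to 1820 in the other gallbladder arrays. Tnni3 and Myh6, which are on that list, read 4.38 and 3.71 in replicate 3. Myl2, a gene of heart and slow muscle that is not on it, read 5.10. Of the 9 heart markers tested, Sln and Smpx, which skeletal muscle makes too, were highest of the 10 arrays there. Tendon and cartilage markers (8 genes) summed to 1130, against 1250 to 2260 in the other gallbladder arrays. Their median relative to the gallbladder mean was 0.22 log2, against -0.17 to 0.12 in those arrays, so sum and median went opposite ways. Body wall and skin markers (6 genes) summed to 528 against 521 to 573, brown fat markers (6 genes) to 2150 against 1570 to 2220, and smooth muscle markers (14 genes) to 35600 against 35100 to 43600. Over the lists of gallbladder epithelium, hepatocytes, erythroid cells, mesothelium, pancreas and neurons, the medians in that array lay between 0.01 and 0.29 log2 relative to the gallbladder mean. The part of these cells in the muscle signal was not tested.

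The genotype comparison asks which gallbladder transcripts differ in Sox17 heterozygotes. Over both strains, 20 of the 23 tested genes had a higher mean in Sox17+/- gallbladders (49.7% of all genes did), with a median of 0.71 log2 against -0.001 for all genes. That median was 0.182 without B6 Sox17+/- replicate 3 and 1.066 without replicate 4, and 0.421 over all 33 genes with no filter. The 20 genes include Ttn, Mybpc1 and Tnnt3, which replicate 3 carried past the filter. Limma called 0 of 23 at an adjusted p under 0.05 (0.0544% of all genes were called, 8 of 14696). At an unadjusted p under 0.05, 7 passed, all higher (3.55% of all genes passed in either direction): Myog, Myh3, Myl1, Mylpf, Acta1, Tnnt1 and Tnnc2. Myog had the smallest p, with an adjusted p of 0.273 and 4 of 4 Sox17+/- arrays above the wild type arrays of their strain. With each array weighted by its reliability, Myog alone of the members passed, in B6 (adjusted p = 0.0199, limma) and over both strains (adjusted p = 0.0389). These weights also raised the number of genes called over the whole table many-fold in both comparisons, as given in the section on processing.

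In B6, 14 of 23 genes were higher in both Sox17+/- arrays than in both wild type arrays, against 20.4% of all genes, and 0 were lower, against 20.7%. With the filter on the other 9 arrays the first count was 13 of 20 (20.3% of all genes). The members' median difference was 1.07 log2, and it was 0.445 without replicate 3 and 1.728 without replicate 4. Limma called 0 of 23 (0.0068% of all genes were called), and 10 had an unadjusted p under 0.05 (1.31% of all genes). The 10 include Ttn, which passed the filter only through replicate 3. Replicate 4, which lacked most of the sarcomere signal, was over 1 log2 above the B6 wild type mean for 4 genes, Myog, Myh3, Actc1 and Tnnc2 (0.367% of all genes), at 1.08, 1.26, 1.01 and 1.12. Replicate 3 was over 1 log2 above it for 19 genes (0.776%). The 19 include Ttn, Mybpc1 and Tnnt3, which that array carried past the filter. With the filter on the other 9 arrays they were 16 of 20 (0.755% of all genes), and with no filter 22 of 33 (0.704%).

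In ICR, 10 of 23 genes were higher in both Sox17+/- arrays than in both wild type gallbladders, against 17.9% of all genes: Myog, Myh3, Myl1, Mybpc1, Acta1, Tnnt1, Tnnt3, Tnni2, Tnnc2 and Ckm. The 2 that were lower without overlap, Casq2 and Cav3, compare with 21.1% of all genes. With the filter on the other 9 arrays, 8 of 20 were higher without overlap. The members' median was 0.14 log2 against -0.01 for all genes, but it was -0.084 with the values as deposited, 0.069 with the filter on the other 9 arrays and 0.069 to 0.229 with 1 array left out, so its direction depended on the scaling. Limma called 0 of 23 (0.0068% of all genes), with 1, Myog, at an unadjusted p under 0.05 (5.28% of all genes). The arrays were uneven here too: ICR Sox17+/- replicate 1 exceeded the wild type mean by 1.25 for Myog, 1.22 for Myl1, 1.14 for Mylpf and 1.48 for Tnnc2, and replicate 2 by 0.39, 0.20, 0.22 and 0.87.

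The B6 and ICR comparisons share no array. The genes without overlap and higher in both were 6 of 23, against 4.82% of all genes: Myog, Myh3, Myl1, Acta1, Tnnt1 and Tnnc2. Of these, Myog, Myh3, Myl1 and Tnnc2 had all 4 Sox17+/- arrays above all 6 wild type arrays, cystic ducts included, which 0.435% of all genes had. No member was lower in both strains (5.99% of all genes). The genotype effect was larger in B6 than in ICR for all 23 genes (53.2% of all genes) by a median of 1.03 log2, which fell to 0.20 without B6 Sox17+/- replicate 3, and limma called 0 of 23 for the difference (0% of all genes). The 23 include Ttn, Mybpc1 and Tnnt3, which that array carried past the filter. At an unadjusted p under 0.05, 2 passed, Actc1 and Tnni1 (1.03% of all genes). Hepatocyte markers were also higher in ICR Sox17+/- gallbladders (median 1.39 log2 over 14 genes, and 0.20 in B6), and erythroid markers by 0.50 in ICR and 0.63 in B6. Hepatocyte signals summed to 35400 and 26500 in ICR wild type and 66500 and 52100 in ICR Sox17+/- gallbladders, and erythroid signals (8 genes) to 4620 and 2830 and to 7720 and 3650. In B6 they summed to 61200 and 44900 in wild type and 56900 and 59400 in Sox17+/- gallbladders for hepatocytes, and to 4400 and 7370 and to 5470 and 12300 for erythroid cells; their part in the members' values was not tested.

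Some members that heart also expresses were higher in another array, and others were not. In ICR wild type gallbladder, replicate 2 exceeded replicate 1 by over 1 log2 for Actc1, Tnni1 and Actn2 (2.06-fold, 2.02-fold and 2.04-fold), 3 of 23 genes, where 3.65% of all genes did so. Casq2 and Myl4, which heart also makes, read 5.80 and 6.96 in replicate 2 and 5.91 and 7.42 in replicate 1. A few genes read in heart were far higher in replicate 2, while the heart marker list as a whole was higher by less. The median of that list relative to the gallbladder mean was 0.65 log2 in replicate 2, the highest of the 10 arrays. It was 0.19 in replicate 1 and between -0.44 and 0.26 in the other arrays. Myl2, a light chain of heart and slow muscle, read 10.85 in replicate 2 and 4.75 in replicate 1, with at most 5.32 in any other array. This gap of 6.10 log2 was the widest of all genes tested in that pair. Myh7 read 6.88 against 4.45, Tnni3, cardiac troponin I, read 6.10 against 5.20, and Myh6, the atrial myosin, read 6.02 against 5.21. Tnni3 and Myh6 are named after their values were seen. Of the 9 heart markers tested, 1 (Myl7, 7.48 against 5.04) was over 1 log2 above replicate 1, and 3 were highest of the 8 gallbladder arrays there (10.3% of all genes were). The median of the 9 for replicate 1 minus replicate 2 was -0.15 log2, and Sln read 4.57 and 4.56. The 12 read summed to 1820 in replicate 2 and 1450 in replicate 1, against 963 to 1360 in the other gallbladders. The fast skeletal genes did not follow, with Tnnc2 at 5.13 and 4.89, Myl1 at 5.97 and 5.96 and Acta1 at 6.94 in both. The ICR wild type pair also differed widely outside muscle, with 537 genes over 1 log2 higher in replicate 2, and Gapdh 3' minus 5' signals of 0.93 and 0.60; the part of these differences in the heart gene values was not tested.

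**Figure D4:**
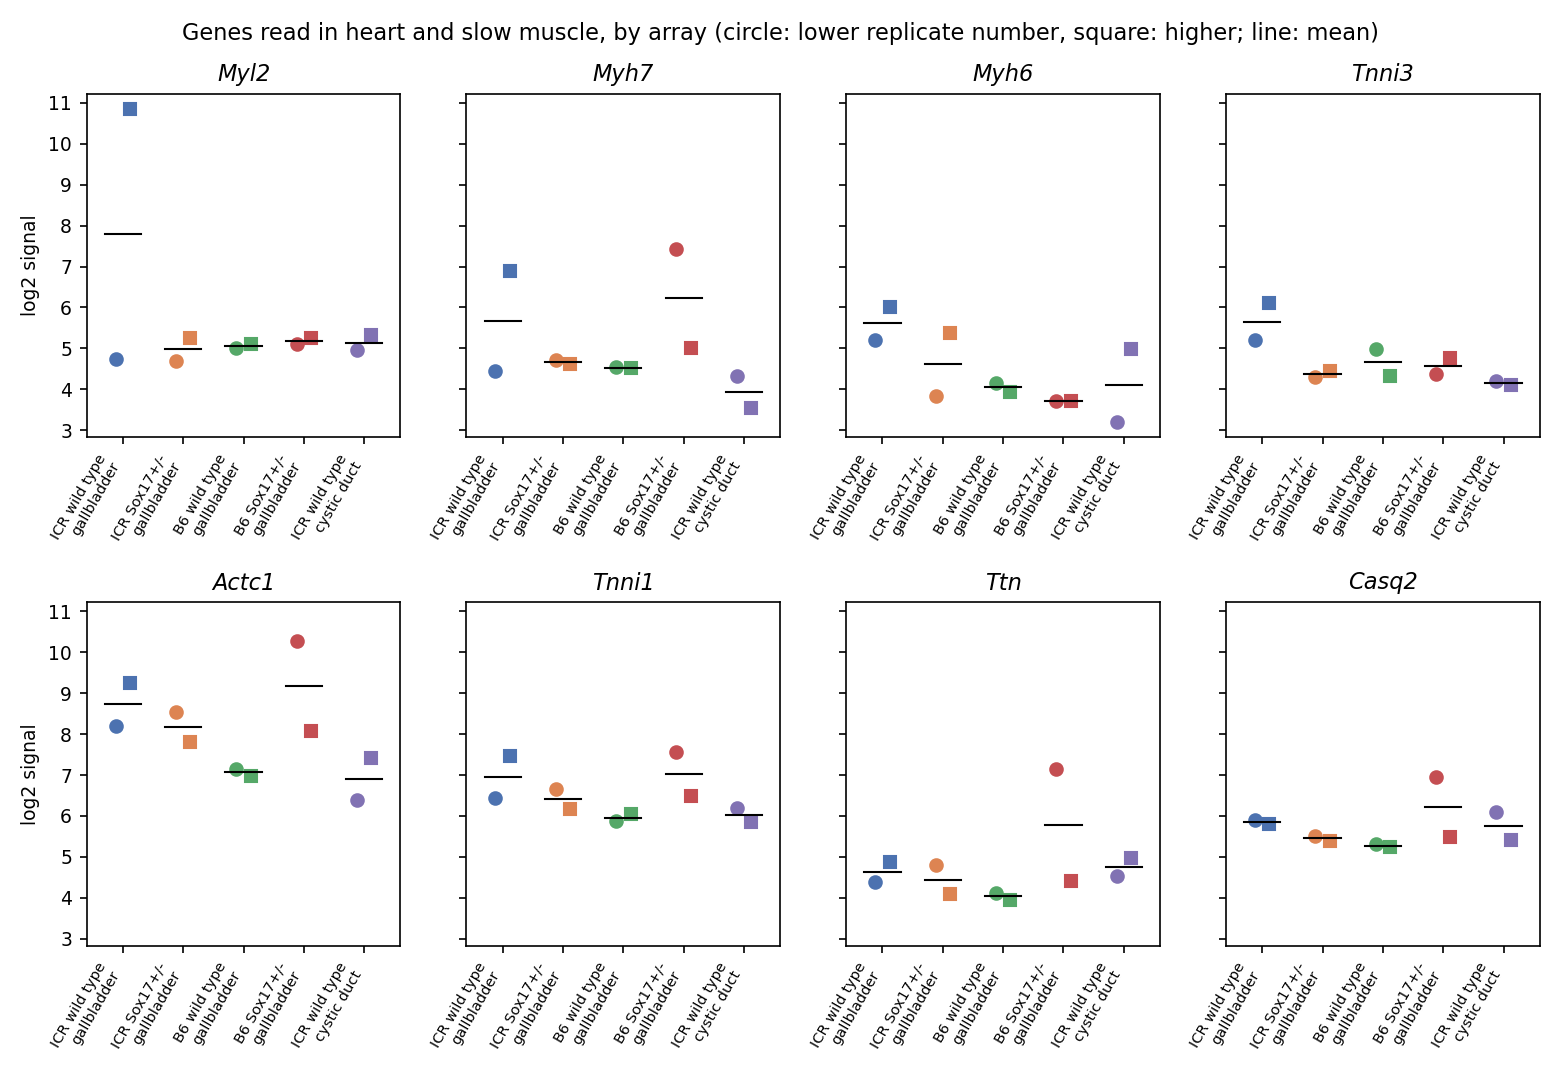
Points are the log2 signals of genes read in heart and slow muscle in each of the 10 arrays, by group (circle, lower replicate number; square, higher; line, group mean of n = 2). Myl2, Myh6 and Tnni3 are highest in ICR wild type replicate 2, with Myl2 at 10.85, and Myh7, Actc1, Ttn and Casq2 are high in B6 Sox17+/- replicate 3; heights are not compared between genes.

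Cystic duct and gallbladder were compared in ICR wild type embryos. Limma called 0 of 23 members, while 14.3% of all genes were called (2107 of 14696), and 2 members, Myl4 and Actc1, had an unadjusted p under 0.05 and lower values in the duct (31.7% of all genes). Myl4 read 5.59 and 6.05 in the ducts and 7.42 and 6.96 in the gallbladders. The members' median was -0.22 log2 against -0.03 for all genes, with 4 of 23 higher without overlap (21.7% of all genes) and 7 lower (27.6%). Without cystic duct replicate 1, the difference was 1.34 log2 for Mybph, 1.68 for Myom1 and -0.96 for Chrng. Without cystic duct replicate 2 it was 1.16 for Tnnc1 and -1.88 for Myom1. A lone duct array has no spread of its own, so these are effect sizes only. Myom1 thus changed direction with the duct used. Myl4 passed without either B6 Sox17+/- array (-1.36 in both, adjusted p = 0.0354 and 0.035). The 2 ducts differed more than any other pair: Myom1, Acta1, Actc1 and Mybph were over 1 log2 higher in replicate 2 (10.4% of all genes), and Tnnc1, Tnnc2 and Actn2 in replicate 1 (13.8%).

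Among the other muscle genes, 12 of 81 fell in the duct and 1 rose, a share called of 16%, near the 14.3% of all genes. These calls rest on the spread shared over all 10 arrays: with the 2 groups fitted alone, or with array weights, limma called 0 genes of the whole table for cystic duct. Tpm2, a tropomyosin that smooth muscle also makes, fell by 1.93 ± 0.15 log2 (SE; limma adjusted p = 0.00138), Hspb7, a small heat shock protein, fell by 2.14 (adjusted p = 0.00413) and Tnnt2 fell by 3.74 (adjusted p = 0.00657). Fhl1, Nebl and Tpm3 fell by 1.43, 2.28 and 0.64. Pfkm, muscle phosphofructokinase, rose by 1.33 (limma adjusted p = 0.0159). Smooth muscle markers were lower as well, with a median of -2.29 and -1.16 log2 in the 2 ducts relative to the gallbladder mean, and summed signals of 10600 and 17300 against 43000 and 43600 in ICR wild type gallbladders. Hepatocyte markers were higher, at 3.12 and 2.10; their part in the members' values was not tested.

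Between the strains, B6 and ICR wild type gallbladders, limma called 0 of 23 members (0.143% of all genes were called), with Actc1 lower in B6 at an unadjusted p under 0.05 (11.1% of all genes). Groups did not overlap for 6 members that were higher in B6 (34.3% of all genes) and 8 that were lower (23.8%). The members' median difference was 0.09 log2, against 0.04 for all genes.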

How the data were processed

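The 10 samples were read from a table of 45101 probe sets. The deposited values are log2 signals, judged from their range (2.204 to 15.154); how the authors corrected background and normalized is not given in the sources used here. Per the labels, Trizol was used for RNA extraction and the Affymetrix protocol for biotinylated cRNA. In the sample records the tags for stage and genotype are exchanged, so groups were read from their values and the titles.

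After removal of 64 controls, the 34945 probe sets with 1 gene in the platform annotation were kept (932 had several genes and 9160 none), and 34741 had an Entrez identifier found in the reference gene table. Array medians (5.51 to 6.07) and interquartile ranges (2.75 to 3.85) differed by more than 0.2 log2, so arrays were quantile normalized. Each gene was read by its brightest probe set, passing over _x_at types unless a gene had nothing else, and genes with a mean under 4.467 log2, the 30th percentile of mean signal over all probe sets but controls, were not tested (14696 of 18193 genes were). Limma 3.58.1 (R 4.3.3) fitted 1 mean per group with empirical Bayes variances and a trend (5 residual degrees of freedom), with Benjamini-Hochberg adjustment over 14696 genes and a threshold of 0.05. Its script was tested on simulated data.

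The members and all gene lists were chosen with earlier results of these data known. Values in every array are given for the myogenic factors, for members that passed, and for up to 5 tested members per role with the widest range over arrays; other muscle genes are named if among the 6 per direction with the smallest p that passed, or the 3 of widest range per list. Any other gene named was picked with its values in view. Alternatives were the values as deposited, median centring, other filters and probe set choices, array weights, the compared groups alone, the replicate number as a block, and leaving out each array; a filter on the other 9 arrays was added after the data were seen. Protein sequences were not used here. Figures were made with Python 3.11.15 and matplotlib 3.10.9.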

Additional observations from a re-analysis of the deposited data

Results flagged for a closer look

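Casq2, the calcium store protein of heart and slow fibres, differed between genotypes in opposite directions in the 2 strains: both Sox17+/- arrays lay above both wild type arrays in B6 and below both in ICR. Of all genes tested, 20.4% did the first and 21.1% the second. The share that did both was not counted, so Casq2 is not shown to stand out from other genes. The B6 effect minus the ICR effect was 1.34 ± 0.63 log2 (SE, n = 2 per group), and the test of that difference did not pass (limma adjusted p = 1; unadjusted p = 0.0656). B6 Sox17+/- replicate 3, the array with the broad skeletal muscle signal, read 6.95 and replicate 4 read 5.48, against 5.31 and 5.24 in B6 wild type. Groups of 2 arrays were not tested for a single array far from its group.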

How the results depend on the processing

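The members' median kept its sign for the genotype effect in B6 and over both strains under the alternatives run, but its size rested on B6 Sox17+/- replicates 3 and 4. With 1 array left out it ran from 0.445 to 1.728 in B6 (1.07 in the report) and from 0.182 to 1.066 over both strains (0.71), lowest without replicate 3 and highest without replicate 4. Over both strains it was 0.509 with the filter on the other 9 arrays and 0.421 with no filter. The members' level in B6 Sox17+/- replicate 3 ran from 1.551 to 1.638 and the replicate gap of that pair from 1.747 to 1.934 with 1 other array left out. In ICR the members' median was -0.084 with the values as deposited, against 0.14. For cystic duct it was -0.356 with the values as deposited, -0.077 with no filter and -0.088 with the mean of probe sets. For strain it was -0.242 as deposited, -0.014 with no filter, -0.127 with the filter at the 50th percentile and 0.421 with the replicate block. The cause of these changes was not tested.

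Members called went from 0 to 1 with array weights in B6 and over both strains, in each case Myog. Genes called over both strains (8 in the report) were 5 with no filter, 2 with every probe set on its own, 78 in gallbladder arrays alone, 136 with array weights and 1 with the replicate block. In ICR (1) they were 2 as deposited, 0 with median centring, 3 with the mean of probe sets, 21 in gallbladders alone, 5 with array weights and 0 with the replicate block. In B6 (1) they were 2 as deposited, 0 with median centring, 5 in gallbladders alone, 103 with array weights and 0 with the replicate block. For cystic duct (2107) they were 0 in the 2 groups alone and 0 with array weights. For strain (21) they were 54 as deposited, 33 with the mean of probe sets, 664 with every probe set, 619 in gallbladders alone, 1195 with array weights and 0 with the replicate block. Deviations of arrays with the same number correlated at 0.377 and 0.217 in the gallbladder pairs and 0.075 and 0.087 with the cystic ducts. No threshold was set for these values and the labels state no pairing, so they do not settle whether the numbers pair the arrays.

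Leaving out 1 array at a time moved genes called over both strains from 1 to 281, in ICR from 0 to 377, in B6 from 0 to 5, for the strain difference of the genotype effect from 0 to 270, for cystic duct from 813 to 7531 and for strain from 0 to 614. The highest counts over both strains, in ICR and for the strain difference came without ICR wild type replicate 2. For members, a fit that leaves a compared group with a lone array is given as an effect size only. Members' medians ran from 0.204 to 2.067 for the strain difference, from -0.336 to -0.063 for cystic duct and from -0.145 to 0.101 for strain. Actn2 in B6 ran from -0.038 to 2.102, turning without B6 Sox17+/- replicate 3. With 2 arrays per group, signal near background and the spread between replicates limit what could pass.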
